A study of Mus musculus with 2 samples.

Results

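The cells described here were *Krt79*-positive epithelial cells of the back skin of mouse embryos at embryonic day 17 (E17). They were chosen by their counts of unique molecular identifiers (UMIs, the tags that mark single captured transcripts) in each cell barcode. A member had at least 1800 detected genes, at least 2 UMIs of *Krt79*, 0 UMIs of *Lhx2*, *Dkk4*, *Fgf20* and *Shh*, and under 30 UMIs of *Krt1* plus *Krt10* per 10000 UMIs. The levels of these 7 genes are therefore what selected the members, and they are given as a description. Cells with at least 1800 genes are called kept cells, and the rule was met by 221 of 4447 of them in the control library and 211 of 3577 in the knockout library, 432 of 8024 in all. Control cells (Ctrl) carried Mettl3 fl/+, Rosa16-YFP fl/+ (so spelled in the labels, Rosa26-YFP in the study's methods) and K14Cre, and knockout cells (cKO) carried Mettl3 fl/fl with the same reporter and Cre, so Ctrl animals were heterozygous for the floxed gene and both groups expressed Cre. *Mettl3* encodes the enzyme that writes N6-methyladenosine (m6A) on RNA, and the K14 promoter drives Cre in the skin epithelium. The strain was C57BL/6. YFP+ cells that excluded DAPI were sorted on integrins α6 and β1, so the gate could set which cells entered, and the number of embryos in each library was not given in the sources used here.

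Keratin 79 is a type II keratin known as an early marker of the cells that line the future hair canal, the opening through which the hair shaft leaves the skin. In the mature follicle *Krt79* marks the upper part, the infundibulum and the ducts of the sebaceous glands, above the stem cell niche of the bulge. Keratin 17 marks the appendage lineage of the embryonic skin more widely. *Pthlh* encodes parathyroid hormone-related protein, a secreted signal that keratinocytes send to the dermis, and *Lpl* encodes lipoprotein lipase, which frees fatty acids from circulating fat.

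With 1 library per condition there was no replicate, and conditions were compared without a test. The counts over members were 1820390 UMIs in Ctrl and 1681844 UMIs in cKO, and a level is given as counts per 1000000 of that sum (CPM). Intervals in parentheses are exact at the 95% level and cover counting error only, not the spread between embryos. Members had medians of 7210 and 6803 UMIs per cell in Ctrl and cKO, with 2429 and 2272 genes and 4.28% and 4.54% mitochondrial UMIs. They were shallower than kept cells as a whole, which had medians of 8941 and 8581 UMIs. The libraries differed in sex, since *Xist* had a UMI in 99.1% of Ctrl members and in 0% of cKO members, so sex and genotype cannot be told apart. *Mettl3* itself was at 15.9 CPM (10.7 to 22.9) in Ctrl and 8.32 CPM (4.55 to 13.97) in cKO in members, but tags of the 3′ end lie outside the floxed exon, which is the fourth, so this level is no measure of the deletion. Of kept barcodes, 16 sequences occurred in both libraries and 0 of them belonged to members, and 4 Ctrl and 5 cKO members had more UMIs than 95% of the kept cells of their library. Among the 4% of cells with the highest doublet scores of each library were 18 of 221 Ctrl and 13 of 211 cKO members. In each library this share of members was above the 4% of all kept cells. A sum over cells does not tell fewer transcripts per cell from fewer cells with a transcript, so shares of cells are given for the main genes.

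The *Krt79* rule was strict against the neighbouring follicle cells. Of the kept cells, 374 in Ctrl and 351 in cKO had at least 2 UMIs of *Krt79*. From these, 144 and 128 were left out for a UMI of *Lhx2*, *Dkk4*, *Fgf20* or *Shh*, nearly all of them for *Lhx2* (138 and 122), and another 9 and 12 for their level of *Krt1* and *Krt10*. *Krt79* counts among members ran from 2 to 108 UMIs in Ctrl, with a median of 6, and from 2 to 73 UMIs in cKO, with a median of 4. The members just inside the limit, with exactly 2 UMIs, numbered 38 and 51. They had 3157 and 2436 CPM of *Krt17* and 794 and 887 CPM of *Pthlh*. The 105 and 125 cells just outside it, with 1 UMI of *Krt79*, had 2094 and 2551 CPM of *Krt17* and 274 and 385 CPM of *Pthlh*. Free RNA, read from barcodes with 10 to 100 UMIs, held 39.1 and 40.8 CPM of *Krt79*. In basal cells, which should lack the gene and were deeper, 0.404% of 2230 Ctrl cells (0.185 to 0.765) and 0.250% of 1200 cKO cells (0.0516 to 0.729) reached 2 UMIs of *Krt79*, at medians of 9042 and 8965 UMIs per cell. Of cells that met the Lhx2 conditions given below, apart from that on *Krt79*, 26.8% of 231 in Ctrl and 24.6% of 203 in cKO did so. For the suprabasal conditions it was 1.23% of 324 and 3.70% of 216. The comparison groups used below leave out every cell with a UMI of *Krt79*, which widens their distance from members.

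*Krt79*-positive cells made up 4.97% of Ctrl cells (4.35 to 5.65) and 5.90% of cKO cells (5.15 to 6.72). The difference, cKO minus Ctrl, was 0.929 percentage points with an interval from -0.0644 to 1.95, which reached 0. After every cell was thinned to 5500 UMIs the shares were 4.07% and 5.10%, and the difference of 1.03 points had an interval from 0.0879 to 2.0, off 0. With cells of at least 2500 genes the direction turned, at 4.10% and 4.02%. In each library the share hung on the depth and on the *Krt79* limit, and the integrin gate could set it as well.

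Beyond the rule, members shared a set of follicle genes. *Krt17* (ENSMUSG00000035557, chromosome 11 from 100256217 to 100261029 of GRCm38) stood at 4591 CPM (4493 to 4690.3) in Ctrl and 3723 CPM (3631 to 3816) in cKO and had a UMI in 99.5% of members of each library. *Pthlh* (ENSMUSG00000048776, chromosome 6 from 147252101 to 147264183) stood at 877 CPM (834 to 921) in Ctrl and 891 CPM (846 to 937) in cKO, with a UMI in 90.05% and 88.2% of members. *Lpl* (ENSMUSG00000015568, chromosome 8 from 68880491 to 68907448) stood at 90.1 CPM (76.8 to 105) in Ctrl and 77.9 CPM (65.1 to 92.4) in cKO, with a UMI in 42.99% and 34.1% of members. After thinning to 5500 UMIs these shares were 87.6% (82.1 to 91.9) and 84.2% (78.04 to 89.1) for *Pthlh*, beside 2.12% and 4.23% in basal cells and 55.2% and 57.4% in Lhx2 cells, and 31.6% (25.1 to 38.7) and 29.5% (23.01 to 36.7) for *Lpl*, beside 2.59% and 6.79% in basal cells. All of *Krt17*, *Pthlh* and *Lpl* were seen in 41.2% of Ctrl and 31.8% of cKO members. *Krt79* itself (ENSMUSG00000061397, chromosome 15 from 101929332 to 101940324) had 1076 and 816 CPM. Other genes known from the upper follicle varied in level. Of 16 such genes 11 were measured against basal cells. By the calls described next 8 were above and 0 below, beside 6.06% and 1.65% of all genes. Against Lhx2 cells 3 of 10 measured were above (*Pthlh*, *Lpl* and *Fst*) and 0 below, beside 2.05% and 1.61% of all genes. The 8 above basal cells include the markers *Krt17*, *Pthlh* and *Lpl* given above. They also include *Sox9*, whose place was set by the choice of basal cells with 0 UMIs of it. Another of them is *Nfatc1*, which is also known from bulge stem cells and so is not particular to the upper follicle. *Lrig1*, which marks junctional zone stem cells of the adult follicle, had 62.6 and 79.1 CPM, and *Plet1*, another marker of that zone, had 28.6 and 32.7 CPM against 27.3 and 23.04 CPM in basal cells. *Gata6*, a transcription factor of the sebaceous duct, had 3 and 3 UMIs in all, *Krt75* and *Defb6* had 0 in both libraries, and *Krt6a* had 1 and 2. The cells are therefore called *Krt79*-positive below, since several markers of the mature upper follicle were at or near 0 in them.

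Members were set beside 3 groups of cells without *Krt79* from the same libraries, to place them in the skin. Basal comparison cells (2173 in Ctrl and 1170 in cKO) had at least 50 UMIs of *Krt14* per 10000 and 0 of *Sox9*. Lhx2 comparison cells (138 and 135) had at least 2 UMIs of *Lhx2*, a transcription factor of early follicle stem cells, and at least 1 of *Sox9*. Suprabasal comparison cells (305 and 201) had at least 100 UMIs of *Krt1* plus *Krt10* per 10000. A gene was called above or below when it differed by at least 2-fold with an interval off 1 in each library. Since the members had been chosen on expression in these cells, the calls are a description. Levels were compared within a gene, because a 3′ tag count does not rank genes against each other.

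**Figure D1:**
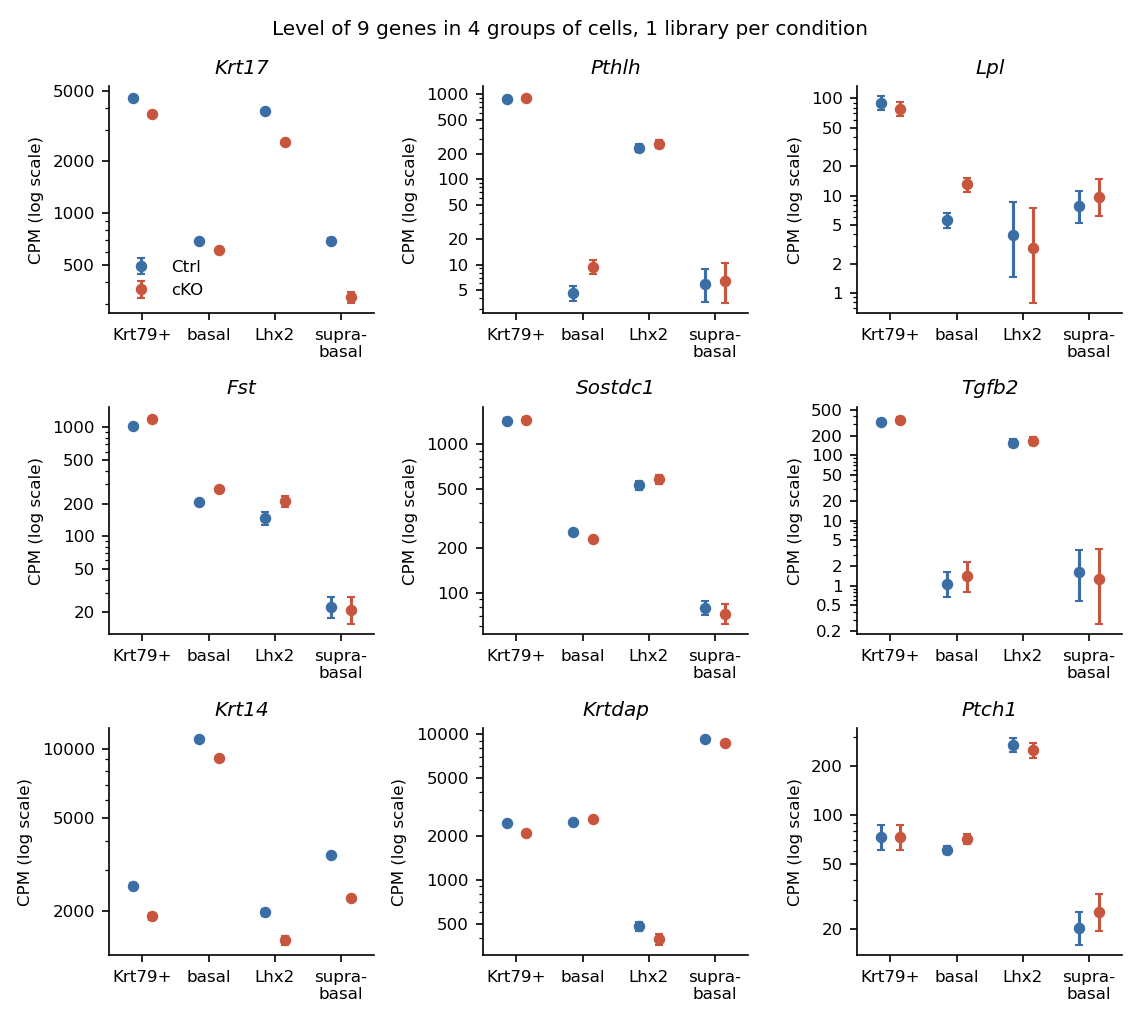
Level of 9 genes in CPM (log scale) in *Krt79*-positive, basal, Lhx2 and suprabasal cells of the Ctrl and the cKO library. Points are sums over the cells of 1 library and bars are exact Poisson intervals at the 95% level, which cover counting error only. *Pthlh*, *Lpl*, *Fst*, *Sostdc1* and *Tgfb2* were highest in *Krt79*-positive cells of each library, while *Krt14* was highest in basal and *Krtdap* in suprabasal cells.

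Against basal cells, 6.06% of 10658 genes were above and 1.65% below (646 and 176 genes). Scaling by the trimmed mean of M values (TMM) shifted all log2 ratios by -0.25 in Ctrl and -0.21 in cKO and gave 467 and 282. The gate had fixed *Sox9* at 0 in basal cells. In members *Sox9*, a transcription factor of follicle progenitors, had 209 and 236 CPM and a UMI in 65.6% and 71.1% of cells. The 12 highest ratios held secreted signals, transcription factors and matrix genes. *Bdnf*, a neurotrophin, had 64.8 and 122 CPM in members and 0.0470 and 0.352 CPM, or 1 and 4 UMIs, in basal cells. *Tgfb2*, a ligand of the TGFβ family, had 327 and 351 CPM against 1.08 and 1.41 CPM, *Pthlh* 877 and 891 CPM against 4.66 and 9.41 CPM, and *Sema3e*, a guidance cue, 63.2 and 65.4 CPM against 1.60 and 2.02 CPM. Of the transcription factors, *Runx1* had 151 and 188 CPM against 2.35 and 3.17 CPM, *Egr2* 86.2 and 80.3 CPM against 0.799 and 0.704 CPM, *Sox11* 63.2 and 88.6 CPM against 0.376 and 0.528 CPM, and *Trps1* 60.98 and 61.8 CPM against 2.02 and 1.32 CPM. The matrix genes *Col9a3* and *Csgalnact1* were above basal cells as well, at 73.6 and 57.1 and 68.1 and 59.5 CPM in members against 0.517 and 0.440 and 2.49 and 1.67 CPM, and so was the transcript *6330403K07Rik*.

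Genes below basal cells included secreted proteins, protease inhibitors and keratins. *Igfbp2*, which binds insulin-like growth factors, had 43.9 and 23.8 CPM in members against 357 and 307 CPM in basal cells. The protease inhibitor *Serpinb10* had 19.8 and 24.4 CPM against 251 and 218 CPM, and *Serpinb7* 3.30 and 2.38 CPM against 33.01 and 26.1 CPM. *Wnt7a*, the nuclear receptor *Nr2f2*, the peptidoglycan binder *Pglyrp4*, the keratin *Krt16* and *Macrod2os1* were each at or under 2.38 CPM in members of each library and between 8.71 (*Wnt7a*) and 16.4 CPM (*Krt16*) in basal cells. Of 16 genes listed for basal keratinocytes, 0 were above and 3 below basal cells, *Krt14*, *Krt5* and *Itga3*. *Krt14* stood at 2557 and 1891 CPM in members and 11046 and 9156 CPM in basal cells, where the gate had asked for it, and *Krt5* at 2568 and 1909 CPM against 5135 and 3972 CPM. *Krt15* was near its basal level, at 5852 and 4107 CPM against 6189 and 3754 CPM. In cKO its ratio to basal cells was 1.09 by totals and turned to below 1 under TMM.

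Against Lhx2 cells, 2.05% of 8441 genes were above and 1.61% below (173 and 136 genes). *Krt17* was alike in size, at 4591 and 3723 CPM in members and 3854 and 2549.9 CPM in Lhx2 cells. *Fst*, the secreted activin and BMP antagonist follistatin, had 1037 and 1184 CPM against 146 and 209 CPM, and *Lpl* 90.1 and 77.9 CPM against 3.95 and 2.90 CPM. *Defb1*, a β-defensin, had 95.6 and 95.7 CPM against 1.32 and 2.18 CPM, with 30.9 and 69.4 CPM in basal cells and 30.9 and 59.8 CPM in free RNA. Keratinocyte transcription factors were higher too. *Pou3f1* had 207 and 144 CPM against 16.5 and 12.3 CPM, *Pou2f3* 82.4 and 64.2 CPM against 13.8 and 12.3 CPM, and *Klf5* 271 and 244 CPM against 43.5 and 50.1 CPM. *Tox3* had 143 and 143 CPM against 15.8 and 10.9 CPM, the adhesion gene *Cdh13* 75.8 and 52.3 CPM against 7.25 and 10.2 CPM, and the guidance receptor *Robo2* 63.2 and 61.2 CPM against 11.9 and 13.8 CPM. *Ccer2* was also above, at 730.1 and 129.6 CPM against 5.93 and 3.63 CPM, and came from few cells as described below.

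Early differentiation genes also stood above Lhx2 cells. *Krtdap*, a keratinocyte differentiation protein, had 2469 and 2078 CPM in members and 478 and 391 CPM in Lhx2 cells, but 2495 and 2599.6 CPM in basal cells and 3927 and 3824 CPM in free RNA. *Ly6d*, a surface protein of stratifying epithelium, had 308 and 458 CPM in members, 58.002 and 69.7 CPM in Lhx2 cells and 5153 and 4342 CPM in suprabasal cells. Of the cornified envelope and canal lining list, 7 of 11 measured genes were above Lhx2 cells (among them *Klk11*, *Klk8*, *Scel* and *Ly6d*) and 0 below, with medians of 1.31 and 1.27 on the log2 scale in Ctrl and cKO, beside -0.08 and -0.08 over all genes measured. Against basal cells 3 of 15 were above and 0 below. The medians there were -0.33 and -0.16, beside 0.17 and 0.14 over all genes. Against suprabasal cells 1 of 17 was above and 10 below, beside 13% and 5.46% of all genes. Of the 33 listed genes, 15 had 0 UMIs in Ctrl members and 15 in cKO members. Below Lhx2 cells lay genes of the lower follicle and of matrix. *Wif1*, a secreted WNT inhibitor, had 3.85 and 1.78 CPM against 103 and 53.002 CPM, *Tbx1*, a transcription factor of hair stem cells, 26.9 and 41.03 CPM against 153 and 156 CPM, and *Trps1* 60.98 and 61.8 CPM against 174 and 166 CPM. Fibronectin (*Fn1*) had 12.1 and 7.73 CPM against 83.05 and 68.2 CPM, *Col14a1* 9.34 and 10.7 CPM against 87.7 and 76.96 CPM, *Mgp* 29.1 and 43.999 CPM against 142 and 184 CPM, and *Igfbp7* 10.99 and 24.97 CPM against 77.1 and 127 CPM. *Prss35*, *Bnc1* and *Sms* followed the same order, at 13.7 and 5.95, 8.24 and 10.1 and 44.5 and 52.3 CPM against 129.8 and 79.1, 58.002 and 71.9 and 166 and 195 CPM.

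Against suprabasal cells, 13% of 8897 genes were above and 5.46% below (1154 and 486 genes), and TMM scaling, which shifted the log2 ratios by -0.35 and -0.24, gave 814 and 738. Basal keratinocyte genes separated members from this group: 12 of 16 basal keratinocyte genes were above suprabasal cells and 0 below. The laminin receptor subunit *Itga6* had 101 and 109 CPM against 20.01 and 23.4 CPM and the hemidesmosome collagen *Col17a1* 138 and 99.3 CPM against 26.9 and 24.2 CPM. *Ncam1*, a cell adhesion molecule, had 203 and 215 CPM against 1.33 and 2.12 CPM, the cytokine receptor *Cntfr* 78.6 and 67.8 CPM against 1.60 and 0.425 CPM, and *Socs3*, an inhibitor of cytokine signaling, 78.005 and 92.2 CPM against 1.07 and 0.425 CPM. *Fst* had 22.4 and 21.2 CPM and *Runx1* 1.87 and 2.12 CPM in suprabasal cells. *Bdnf* had 0 UMIs there in each library, so that members were at least 80.99-fold higher in Ctrl and at least 95.6-fold higher in cKO, taking 3 counts over the suprabasal sum as the floor. Several genes of suprabasal cells were nearly absent from members. *Npl* had 8.24 and 1.78 CPM against 558 and 461 CPM, *Serpinb12* 1.65 and 0.595 CPM against 263 and 189 CPM, *Ly6g6c* 0.549 and 0.595 CPM against 140.1 and 171 CPM, and *2610528A11Rik* 4.94 and 2.97 CPM against 226 and 175 CPM. *Cysrt1* and *Rbp2* had 0 UMIs in members of each library, while *Tdh* had 0 and 1 and *Serpinb3b* 3 and 0.

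Signaling pathways were read by their listed genes. In the WNT list, the ligands *Wnt4* and *Wnt10a*, at 240.1 and 188 and 71.4 and 87.4 CPM, were above Lhx2 cells at 96.2 and 90.8 and 19.1 and 28.3 CPM, and no 2-fold difference from basal cells was called for them. The basal WNT ligands *Wnt3* and *Wnt16* were below basal cells, at 20.9 and 16.1 and 23.6 and 20.8 CPM against 57.4 and 66.7 and 143 and 131 CPM. The receptor *Fzd10* was also below, at 37.4 and 32.7 CPM against 98.005 and 86.8 CPM. *Lef1*, the nuclear partner of β-catenin and a marker of the hair placode, had 24.2 and 14.9 CPM in members, 157 and 121 CPM in basal cells and 30.3 and 33.4 CPM in Lhx2 cells. *Sostdc1*, a secreted inhibitor of WNT and BMP signals, was among the most widely detected genes of the list, with a UMI in 93.7% and 96.7% of members. It had 1442 and 1466 CPM against 258 and 229 CPM in basal and 531 and 584 CPM in Lhx2 cells. In all, 5 of 35 measured WNT genes were above and 6 below basal cells, where all genes gave 6.06% and 1.65%.

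Hedgehog targets were lower in members than in Lhx2 cells. The receptor and target *Ptch1* had 73.1 and 73.1 CPM in members, 269 and 251 CPM in Lhx2 cells and 60.9 and 71.5 CPM in basal cells. The effector *Gli1* was ordered alike, at 25.8 and 16.6 CPM against 58.002 and 45.7 CPM in Lhx2 cells. The co-receptor *Gas1* went the other way, at 497 and 459 CPM against 222 and 199 CPM. Of 9 hedgehog genes measured there, 1 was above and 4 below Lhx2 cells, where all genes gave 2.05% and 1.61%. In the BMP and TGFβ list, *Tgfb2* was above all 3 groups, with 154 and 166 CPM in Lhx2 cells, while *Tgfb3*, at 45.6 and 49.9 CPM, lay above basal cells (1.74 and 2.99 CPM) and below Lhx2 cells (123 and 113 CPM). *Bmp2*, a ligand, was lower than in basal cells, at 10.4 and 10.1 CPM against 34.99 and 22.9 CPM. Immediate early genes, which rise within minutes of a stimulus or of cell dissociation, set members apart from basal more than from Lhx2 cells by count. Of 17 measured, 13 were above basal cells and 1 below, beside 6.06% and 1.65% of all genes. For suprabasal cells it was 10 of 17 above and 1 below, beside 13% and 5.46% of all genes. Against Lhx2 cells 2 of 16 were above, *Atf3* and *Fosl2*, and 0 below. *Jun* had 1354 and 1470.4 CPM in members, 231 and 229.9 CPM in basal and 616 and 848 CPM in Lhx2 cells. *Atf3* had 329 and 296 CPM, with 41.9 and 27.3 CPM in basal and 61.3 and 75.5 CPM in Lhx2 cells, and a UMI in 57.01% and 51.2% of members. The part of tissue dissociation in these levels was not tested.

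Sebaceous and lipid genes were seen on both sides of basal cells. Of 17 measured sebaceous and lipid genes, 6 were above basal cells (*Lpl*, *Plin2*, *Mgst1*, *Prdm1*, *Elovl4* and *Scd1*) and 2 below (*Fabp5* and *Myc*), beside 6.06% and 1.65% of all genes. *Plin2*, which coats lipid droplets, had 60.98 and 31.5 CPM against 6.77 and 5.19 CPM, and *Mgst1* 80.8 and 122 CPM against 14.8 and 29.3 CPM. *Prdm1*, the gene of the repressor Blimp1, had 16.5 and 31.5 CPM against 0.0470 and 0.176 CPM. Of the same list, 2 of 14 measured genes were above Lhx2 cells (*Lpl* and *Mgst1*) and 2 below (*Elovl5* and *Elovl6*). All genes gave 2.05% and 1.61% there. No 2-fold difference from Lhx2 cells was called for *Plin2*, *Prdm1* and *Scd1*. Against suprabasal cells 3 of 17 were above and 7 below, beside 13% and 5.46% of all genes. *Scd1* was low in members, at 12.1 and 13.7 CPM. *Pparg*, the master regulator of the sebocyte, had 2 and 3 UMIs, and the sebocyte genes *Awat1*, *Mc5r* and *Elovl3* had 0. Among keratins, *Krt7*, a simple epithelial keratin, had 62.1 and 48.8 CPM against 5.50 and 7.83 CPM in basal, 7.91 and 5.81 CPM in Lhx2 and 3.74 and 5.10 CPM in suprabasal cells.

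Members were not alike in their *Krt79* counts, and cells with 10 or more UMIs stood apart in some genes. The 221 Ctrl members held 38 cells with 2 UMIs, 40 with 3 to 4, 86 with 5 to 9 and 57 with 10 or more. The 211 cKO members held 51, 63, 66 and 31. Cells with 10 or more UMIs were 25.8% of Ctrl members (20.2 to 32.1) and 14.7% of cKO members (10.2 to 20.2). The bins use raw counts and so depend on depth. The median UMIs per cell along them were 6959, 7609.5, 6637.5 and 8034 in Ctrl and 6479, 6829, 6668 and 7498 in cKO. The part of depth in the shares and levels by bin was not tested. *Krt17* along these 4 bins was 3157, 4609, 4136 and 6098 CPM in Ctrl and 2436, 2981, 3139 and 7587 CPM in cKO, highest in the last bin of each library. *Ly6d* had 255, 195, 239.6 and 518 CPM in Ctrl and 363, 356, 257 and 1083 CPM in cKO, again with its highest level in the last bin. *Pthlh* did not follow *Krt79*: it was 794, 862, 925 and 869 CPM in Ctrl and 887, 1065, 942 and 527 CPM in cKO, with its lowest cKO level in the last bin. *Sox9* had 214, 273, 214 and 153 CPM in Ctrl and 209.6, 251, 257 and 210.01 CPM in cKO. *Krt8*, a keratin of simple epithelia and Merkel cells, had 10.2, 8.62, 111 and 227 CPM in Ctrl and 5.11, 0, 19.95 and 83.3 CPM in cKO.

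**Figure D2:**
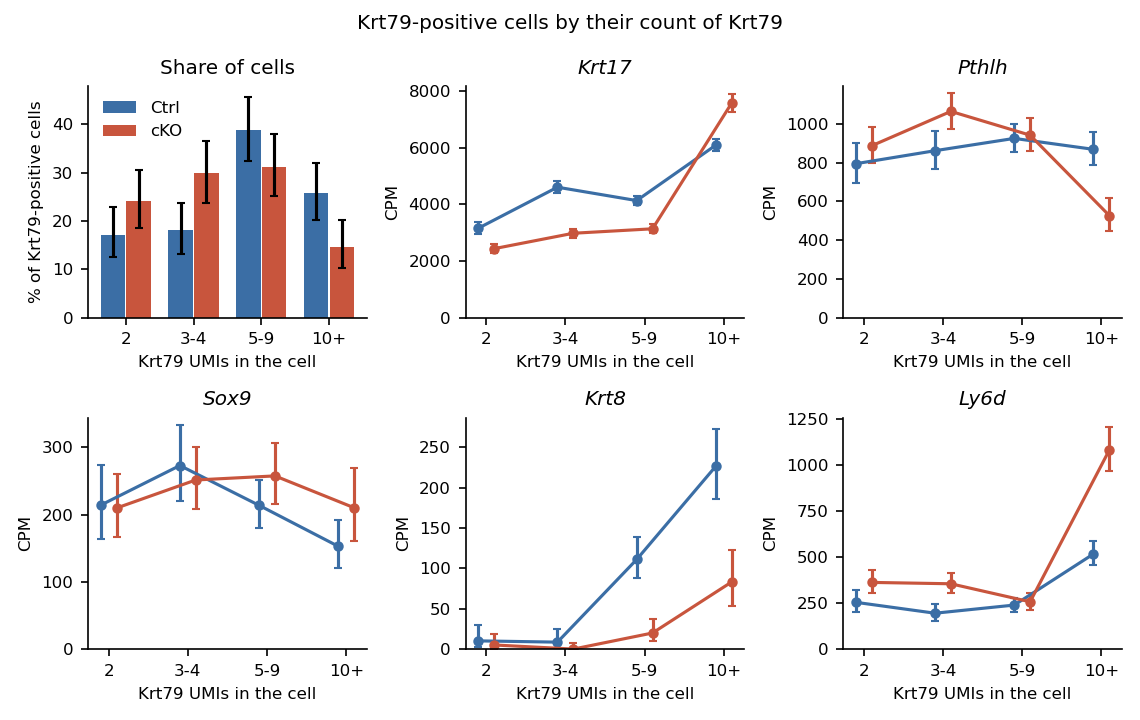
Share of *Krt79*-positive cells in 4 bins of *Krt79* UMIs (bars, percent of members of each library, exact binomial intervals) and the level of 5 genes in CPM in the same bins (points, exact Poisson intervals). All intervals are at the 95% level and cover counting error only. *Krt17*, *Krt8* and *Ly6d* were highest in cells with 10 or more UMIs of *Krt79*, and *Pthlh* was not.

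A small set of members carried genes of the Merkel cell lineage, the touch-sensing cells of the skin. A UMI of *Atoh1*, the transcription factor that specifies these cells, occurred in 16 Ctrl and 10 cKO members (7.24% and 4.74%). This split was chosen after the levels had been seen, so its genes are described with no test. The 16 and 10 cells had medians of 12.5 and 9 UMIs of *Krt79*, against 5 and 4 in the 186 and 181 members outside this set and the *Calm4* set described next. *Krt8* had 1635 and 541 CPM in them and 4.73 and 1.41 CPM in these remaining members. *Sox2* had 371 and 201 CPM against 0 and 0 CPM, *Pou4f3* 1184 and 665 CPM against 0 and 4.24 CPM, and *Hes6* 645 and 603 CPM against 35.8 and 33.9 CPM. *Ccer2* was at 11638 and 3063 CPM against 8.11 and 13.4 CPM. *Krt17* stayed high in these cells, at 6848 and 7022 CPM. *Pthlh* was at 229.7 and 340.3 CPM, *Sox9* at 44.2 and 46.4 CPM and *Lrig1* at 8.84 and 46.4 CPM. Each of these point values was under that of the remaining members. The *Sox9* and *Lrig1* values rest on few UMIs from 16 and 10 cells, and their differences from the remaining members were not tested. Markers of mature Merkel cells were at or near 0 in members as a whole: *Krt20* and *Snap25* had 0 UMIs, *Isl1* 3 and 0, and *Chga* 1 in each library. Of all kept cells with a UMI of *Atoh1*, 19 of 45 in Ctrl and 12 of 34 in cKO had at least 2 UMIs of *Krt79*. Among those with under 10 UMIs of *Krt8* it was 14 of 23 and 10 of 18, and among those with 10 or more it was 5 of 22 and 2 of 16.

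Another set of members had at least 5 UMIs of *Calm4*, a calmodulin-like gene of differentiating keratinocytes. Without a UMI of *Atoh1* these were 19 Ctrl and 20 cKO cells, again split after the levels had been seen, and 1 more cKO cell is counted with the *Atoh1* cells. The set was deeper, with medians of 11071 and 8931 UMIs per cell, and the part of doublets in it was not tested. *Perp*, a desmosome protein, had 2412 and 2523 CPM in these cells and 907 and 816 CPM in the remaining members, and desmoplakin (*Dsp*) 321 and 366 CPM against 155 and 149 CPM. *Ly6d* had 563 and 1479 CPM against 289.9 and 329 CPM, and *Sfn*, the stratifin gene, 1096 and 1899.8 CPM against 638 and 946 CPM. *Ptch1* had 238 and 168 CPM against 52.03 and 62.9 CPM. *Lpl*, *Tgfb2* and *Bdnf* were lower in this set, at 30.8 and 29.7, 83.6 and 64.3 and 17.6 and 14.8 CPM against 106 and 86.9, 364 and 389 and 73.6 and 141 CPM. The remaining 186 Ctrl and 181 cKO members, the bulk of the group, held most of the *Pthlh*, *Lpl*, *Tgfb2* and *Bdnf* counts.

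**Figure D3:**
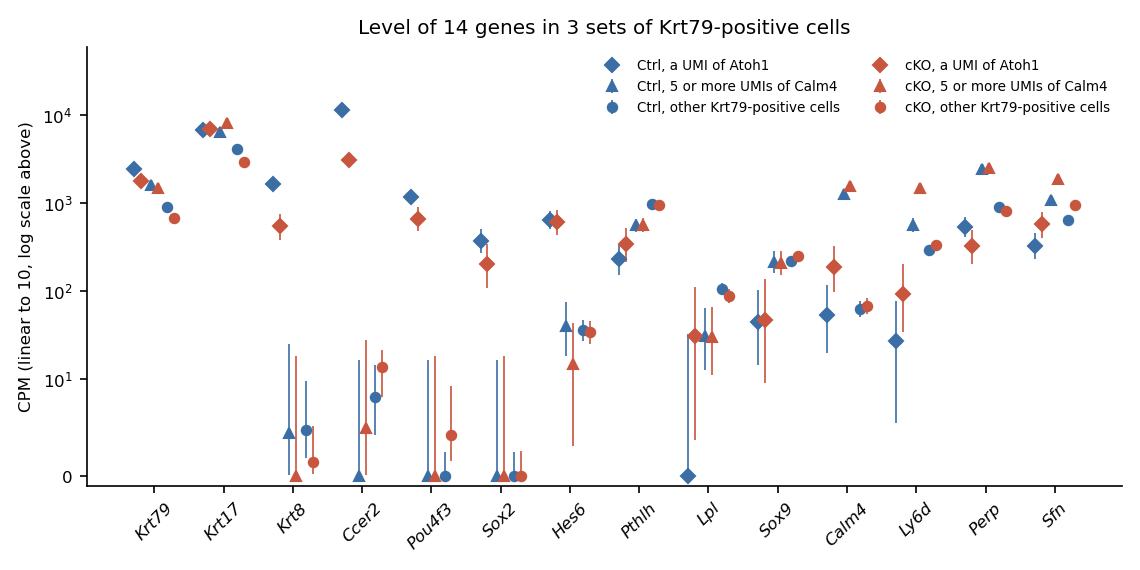
Level of 14 genes in CPM (linear to 10, log scale above) in *Krt79*-positive cells with a UMI of *Atoh1* (diamonds), with 5 or more UMIs of *Calm4* (triangles) and in the remaining members (circles), for the Ctrl and the cKO library. Bars are exact Poisson intervals at the 95% level and cover counting error only. *Krt8*, *Ccer2*, *Pou4f3* and *Sox2* stood out in the first set, *Calm4*, *Ly6d* and *Perp* in the second, and *Pthlh* and *Lpl* were highest in the remaining members.

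Between the conditions, the markers *Pthlh* and *Lpl* had ratios whose intervals held 1, while *Krt17* and *Krt79* had ratios below 1. *Pthlh* was at 877 and 891 CPM, a ratio of cKO to Ctrl of 1.02 (0.946 to 1.09). *Lpl* had a ratio of 0.865 (0.682 to 1.09), *Sox9* of 1.13 (0.980 to 1.30), *Sostdc1* of 1.02 (0.962 to 1.07) and *Lrig1* of 1.26 (0.976 to 1.64), each with an interval that held 1. In basal cells, where both were scarce, *Pthlh* had a ratio of 2.02 and *Lpl* of 2.33, with 42.98 and 59.3 and 4.86 and 8.05 CPM in free RNA, and the differences between these ratios and those of members were not tested. *Fst* had a ratio of 1.14 (1.07 to 1.22). Ratios of *Krt17* and the basal keratins lay below 1. *Krt17* had a ratio of 0.811 (0.785 to 0.838), *Krt14* of 0.739 (0.707 to 0.774), *Krt5* of 0.744 (0.711 to 0.778) and *Krt15* of 0.702 (0.681 to 0.724), and in basal cells the ratios were 0.885, 0.829, 0.773 and 0.607. These differences stayed under the 1.5-fold size used for a call. *Krt79*, a gene of the rule, had 1076 CPM in Ctrl and 816 CPM in cKO members, a ratio of 0.759.

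A gene was called higher or lower in cKO when its ratio was at least 1.5-fold with an interval off 1, among the 9002 genes that reached 20 UMIs in members of the libraries together. This held for 366 genes that were higher (4.07%) and 295 that were lower (3.28%). TMM scaling, with a shift of 0.02 on the log2 scale, gave 393 and 268. The order turned in favour of lower genes after thinning, with 249 higher and 273 lower, and without members that had a UMI of *Mki67* or *Top2a*, with 246 and 270. The median ratio of all genes was -0.01 on the log2 scale. Each of the 12 genes with the highest ratios, of those with 100 UMIs or more, also had a ratio above 1 in basal cells of the same libraries. *Rbm15*, which guides the m6A writer to RNA, had 14.8 CPM (9.77 to 21.6) in Ctrl and 46.4 CPM (36.7 to 57.9) in cKO, a ratio of 3.13 (1.996 to 5.04) in members and 3.45 in basal cells. *Rpp25l* went from 63.2 to 172 CPM, *Mrpl43*, a mitochondrial ribosomal protein gene, from 92.8 to 241 CPM, and *Nxt1*, an mRNA export factor, from 89.5 to 211 CPM. Their ratios were 2.72 (2.18 to 3.41), 2.59 (2.16 to 3.12) and 2.36 (1.95 to 2.86) in members and 3.30, 2.64 and 2.83 in basal cells. Free RNA moved with them, from 47.1 to 183 CPM for *Rpp25l* and from 97.4 to 275 CPM for *Mrpl43*, and its part in the member values was not tested. *Snapc5*, *Ndufaf1*, *Cdc42ep5*, *Pop7* and *Fdx1l* had ratios from 2.08 (*Fdx1l*) to 2.33 (*Snapc5*). The calls of *Fdx1l*, *Ndufaf1* and *Cdc42ep5* were each lost under an alternative, with *Fdx1l* at 1.33 (0.934 to 1.88) among cells with at least 2500 genes, and *Ndufaf1* at 1.38 (0.753 to 2.57) and *Cdc42ep5* at 1.55 (0.927 to 2.64) without members that had a UMI of *Mki67* or *Top2a*. The homeobox gene *Hoxc8* had a ratio of 2.43 (1.59 to 3.78) and the HOX cluster transcript *Hotairm1* one of 2.01 (1.57 to 2.59). After thinning *Hoxc8* had 1.75 (0.997 to 3.16), no longer a call. *Rpl23a*, at 2.13 (1.64 to 2.78), has near-identical pseudogenes, so its counts are uncertain.

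Some genes of the lists and of the contrasts above were also higher. *Bdnf* (ENSMUSG00000048482, chromosome 2 from 109674700 to 109727007) had 64.8 CPM (53.7 to 77.6) in Ctrl and 122 CPM (106 to 139.8) in cKO, a ratio of 1.88 (1.49 to 2.38), and a UMI in 30.3% and 42.7% of members. In Lhx2 cells *Bdnf* had 65.3 and 76.96 CPM, a ratio of 1.18, and the difference between these ratios was not tested. *Sfn* had 676 CPM (638 to 715) in Ctrl and 1046 CPM (998 to 1096) in cKO, a ratio of 1.55 (1.44 to 1.67), with 1.62 in basal cells. *Dsg2*, a desmosomal cadherin, had a ratio of 1.97 (1.32 to 2.99), *Mgst1* of 1.51 (1.22 to 1.88) and *Tbx1* of 1.52 (1.04 to 2.25). *Dsg2* lost its call without members that had a UMI of *Mki67* or *Top2a*, at 1.64 (0.940 to 2.90), *Sfn* with cells of at least 2500 genes, at 1.47 (1.33 to 1.63), and *Tbx1* under 5 alternatives, down to 1.15 (0.698 to 1.89) after thinning. Of 18 measured genes of the m6A machinery, 3 were higher and 0 lower, beside 4.07% and 3.28% of all genes, with a list median of 0.12 on the log2 scale. Besides *Rbm15* these were *Alkbh5*, an m6A eraser, at 1.81 (1.34 to 2.45) and *Ythdf2*, a reader, at 1.74 (1.41 to 2.15). In basal cells these ratios were 1.36 and 1.75. *Alkbh5* lost its call after thinning, at 1.26 (0.828 to 1.93), and without members that had a UMI of *Mki67* or *Top2a*, at 1.5 (0.971 to 2.34).

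*Ccer2* and *Krt8* had the lowest ratios of genes with 100 UMIs or more, and they moved with the *Atoh1* cells. *Ccer2* (ENSMUSG00000096257, chromosome 7 from 28756174 to 28758968) had 1329 UMIs in Ctrl and 218 in cKO members, a ratio of 0.177 (0.153 to 0.205). *Krt8* had 193 and 37 UMIs, a ratio of 0.207 (0.142 to 0.296), and *Pou4f3*, a transcription factor of Merkel cells, 134 and 49, a ratio of 0.396 (0.279 to 0.553). Without the members that had a UMI of *Atoh1*, *Ccer2* turned to a ratio of 1.76 (0.819 to 3.95) and *Krt8* had 0.264 (0.0273 to 1.32), so neither stayed a call. Few UMIs were left for these ratios. Over both libraries the *Atoh1* cells held 1515 UMIs of *Ccer2* and 220 of *Krt8*, and the members outside the *Atoh1* and *Calm4* sets 31 and 9. The lost call of *Krt8* therefore does not show that its levels were alike. With *Krt79* of at least 1 UMI *Ccer2* had 0.838 (0.776 to 0.905), and *Pou4f3* had 0.789 (0.4996 to 1.24) after thinning. Among cells with at least 2500 genes *Krt8* had the opposite direction. *Ccer2* had 205 and 74.8 CPM in free RNA of Ctrl and cKO. Within the *Atoh1* cells alone *Krt8* was at 1635 and 541 CPM and *Ccer2* at 11638 and 3063 CPM, on 16 and 10 cells.

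Several lower genes did not rest on those cells. *Mbd2*, which binds methylated DNA, had 64.3 CPM (53.2 to 77.03) in Ctrl and 21.4 CPM (14.99 to 29.6) in cKO, a ratio of 0.333 (0.223 to 0.488), and 0.345 without the *Atoh1* cells. In basal cells its ratio was 0.625. *Vim*, the gene of vimentin, had 97.2 CPM (83.4 to 113) in Ctrl and 41.03 CPM (31.9 to 51.9) in cKO, a ratio of 0.422 (0.315 to 0.560), and a UMI in 36.2% and 20.9% of members. *Hist3h2a*, a histone gene, had a ratio of 0.342 (0.247 to 0.467) and in basal cells of 0.222. *Stfa3*, at 0.374 (0.329 to 0.424), is one of several near-identical stefin genes and was at 3616 and 1878 CPM in free RNA, so its value is uncertain. *Angptl2*, a secreted protein, had 0.462 (0.295 to 0.707), the kinase gene *Mark3* 0.466 (0.296 to 0.719), the RNA-binding protein gene *Rbmx* 0.475 (0.339 to 0.659), *Lgals9* 0.486 (0.316 to 0.733) and periostin (*Postn*) 0.486 (0.373 to 0.628). The lipid droplet gene *Plin2* was at 60.98 CPM in Ctrl and 31.5 CPM in cKO, a ratio of 0.517 (0.365 to 0.723), and *Scel*, the gene of the envelope precursor sciellin, at 46.1 and 23.2 CPM, a ratio of 0.502 (0.335 to 0.743). Their ratios in basal cells, where both were scarce, were 0.766 and 0.686. With cells of at least 2500 genes the calls of *Angptl2*, *Lgals9* and *Scel* were lost, at 0.577 (0.291 to 1.09), 0.777 (0.415 to 1.42) and 0.664 (0.378 to 1.14), and that of *Mark3* after thinning, at 0.597 (0.331 to 1.05).

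**Figure D4:**
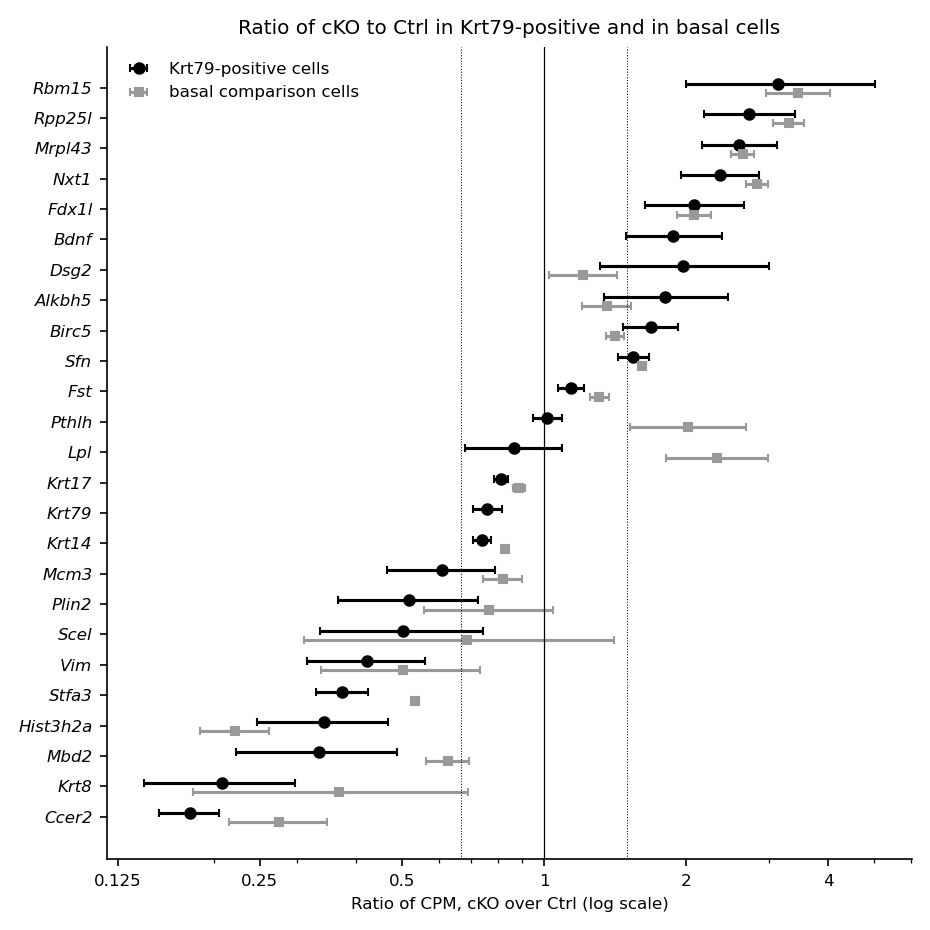
Ratio of CPM in cKO over Ctrl (log scale) for 25 genes in *Krt79*-positive cells (black circles) and in basal comparison cells (grey squares, where measured), with exact intervals at the 95% level that cover counting error only. Dotted lines mark 1.5-fold. *Rbm15*, *Mrpl43* and *Nxt1* were higher in both groups of cells, *Pthlh* and *Lpl* lay near 1 in *Krt79*-positive cells and above 1.5 in basal cells, and *Ccer2* and *Krt8* were lowest.

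The pathway lists are given by their counts of calls between the conditions, beside 4.07% of all genes higher and 3.28% lower. For WNT, 0 of 32 measured genes were higher and 1 lower (the receptor *Fzd3*), for hedgehog 0 and 0 of 9, and for the BMP and TGFβ list 0 and 1 of 27 (*Smad2*, a signal transducer, at 0.532). In the NOTCH list the ligand *Dll1* was higher, at 2.02 (1.04 to 4.07), and *Lfng*, a modifier of NOTCH receptors, lower, at 0.649 (0.417 to 0.998), among 12 genes. *Dusp6*, a feedback inhibitor of ERK, was the 1 higher gene of 13 in the EGFR and FGF list, at 1.65 (1.23 to 2.22). Immediate early genes gave 0 calls among 17, with a median of 0.04 on the log2 scale. For 16 basal keratinocyte genes the counts were 0 and 0, for 13 early suprabasal genes 1 higher, *Sfn*, and 0 lower, and for 23 junction genes 1 higher, *Dsg2*, and 0 lower. Of 16 sebaceous and lipid genes, *Mgst1*, *Prdm1* and *Myc* were higher and *Plin2* lower.

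Cell cycle genes were read by phase, and the difference between phases was not tested. Of 30 S phase genes 0 were higher and 6 lower in cKO (*Mcm2*, *Mcm3*, *Mcm5*, *Mcm7*, *Clspn* and *Cdc45*), beside 4.07% and 3.28% of all genes, with a median of -0.43 on the log2 scale, and 28 of 30 had a ratio below 1. *Mcm3*, a subunit of the replicative helicase, had 90.1 and 54.7 CPM, a ratio of 0.607 (0.465 to 0.788), and 0.818 in basal cells. Of 35 G2 and M phase genes 4 were higher (*Birc5*, *Cenpe*, *Hmmr* and *Ckap2l*) and 0 lower, with a median of 0.18. *Birc5*, the gene of survivin, had 199.96 and 337 CPM, a ratio of 1.68 (1.47 to 1.93), and 1.41 in basal cells. The share of cells with a UMI of *Mki67* or *Top2a*, after thinning to 5500 UMIs, was 39.9% (32.9 to 47.2) in Ctrl and 40.4% (33.3 to 47.9) in cKO members, and 42.5% and 40.3% unthinned. For *Mki67* alone the thinned shares were 16.6% (11.6 to 22.6) and 19.7% (14.2 to 26.2), with 25.6% and 29.8% in basal cells. The thinning left out 28 members of each library.

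Most markers of other cell types were scarce. Of the fibroblast list, *Pdgfra* and *Dpt* had 0 UMIs in members, and *Col1a1*, *Col3a1* and *Lum* at most 1 in a library. *Dcn*, at 126 and 87.999 CPM, was below its level of 561 and 516 CPM in free RNA. Of 4 measured fibroblast genes 2 were above basal cells (*Vim* and *Col1a2*) and 2 below (*Postn* and *Dcn*). All genes gave 6.06% and 1.65% there. *Vim* and *Col1a2* were also above suprabasal cells, and 0 of the 4 were above Lhx2 cells. Of 4 measured fibroblast genes 0 were higher and 3 lower in cKO members, beside 4.07% and 3.28% of all genes. The 3 lower genes were *Vim*, *Postn* and *Col1a2*, the last a dermal collagen with 41 and 22 UMIs, and the part of fibroblast RNA in them was not tested. Summed, this list was at 355 CPM in Ctrl and 196 CPM in cKO members. Melanocyte and neural crest markers summed to 27.5 and 29.1 CPM, with *Sox10* and *Tyrp1* at 0, and immune markers to 1.10 and 1.19 CPM, with *Ptprc* at 0. The Merkel list summed to 189 and 65.999 CPM, and 3 of its 4 measured genes (*Sox2*, *Atoh1* and *Krt8*) were lower in cKO, beside 3.28% of all genes. Over both libraries these 3 genes had 55, 126 and 220 UMIs in the members with a UMI of *Atoh1*. In the members outside the *Atoh1* and *Calm4* sets they had 0, 0 and 9. Of all kept cells, 45 of 4447 in Ctrl and 34 of 3577 in cKO had a UMI of *Atoh1*. The part of the *Krt79* limit in the lower levels was not tested.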

How the data were processed

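Single epithelial cells of E17 back skin were sorted and captured with the 10x Chromium 3′ v2 chemistry, 1 library for Ctrl and 1 for cKO. The deposited values are raw counts of UMIs for each gene in each barcode, from reads aligned by the authors to mm10; the submitters' processing notes name Cell Ranger 2.0. The matrices hold all barcodes and were read as deposited, before any merging of the libraries, with totals of 59664869 and 49755010 UMIs. Samples were grouped by their genotype labels. The members, the gene lists and the comparison groups were chosen with earlier results of these data known.

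Counts were summed over the cells of a group in each library and given as CPM. Ratios carry exact conditional binomial intervals, levels exact Poisson intervals and shares exact Clopper-Pearson intervals, all at 95% and for counting error only. With 1 library per condition no model was fitted and no p-value computed. Genes with at least 20 UMIs over the groups compared were measured. Named genes were the rule genes and markers, members of the lists, and, where a gene had 100 UMIs or more, the 12 top and 8 bottom ratios against each comparison group and the 12 highest and 12 lowest ratios of cKO to Ctrl, leaving out *Xist*, Y-linked genes and unnamed gene models in the last. Genes called in opposite directions in members and basal cells were also named. Shares of cells across depths were compared after thinning to 5500 UMIs per cell. Scrublet marked 7 Ctrl and 2 cKO cells as doublets (0.157% and 0.0559%), which is too few for it to have worked, so doublets were kept and the 4% of cells with the highest scores were left out as an alternative. Basal comparison cells had 0 UMIs of *Krt79* and, like the members, of the other genes of the rule held at 0. Gene positions are those of GENCODE for GRCm38, which held 27645 of 27998 gene IDs. Python 3.11.15, numpy 2.4.6, scipy 1.17.1, pandas 2.3.3, scanpy 1.11.5, edgeR 4.0.16 for TMM factors and DESeq2 1.42.0 for size factors were used. The ratio code was tested on simulated data. Alternatives were other gene minimums, *Krt79* limits and *Krt1* and *Krt10* limits, thinning, scaling, UMI minimums, removal of high-scoring doublets, of cells with many mitochondrial UMIs, of cycling cells and of the *Atoh1* and *Calm4* cells.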

Additional observations from a re-analysis of the deposited data

Results flagged for a closer look

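*Stoml1*, a stomatin-like gene, was the 1 gene called in opposite directions in *Krt79*-positive cells and in basal cells of the same libraries. Its ratio of cKO to Ctrl was 2.63 in members, with an interval from 1.04 to 7.50, and 0.562 in basal cells. The member value rests on 7 UMIs in Ctrl and 17 in cKO, and the difference between the ratios was not tested. The call in members was lost under 8 alternatives, for example at 2.41 (0.939 to 6.94) without the *Atoh1* cells.

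Barcodes with 1000 to 1799 genes, which the gene limit leaves out, also held cells that met every other condition of the rule. They numbered 22 of 1769 in Ctrl (1.24%, 0.781 to 1.88) and 45 of 1944 in cKO (2.31%, 1.69 to 3.09), with medians of 4362 and 4321 UMIs. *Krt17* was at 6754 and 3989 CPM in them, *Pthlh* at 666 and 1343 CPM and *Lpl* at 131 and 93.4 CPM.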

How the results depend on the processing

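The share of *Krt79*-positive cells moved in Ctrl and cKO to 3.91% and 4.64% at a minimum of 1000 genes, 4.10% and 4.02% at 2500 genes, 7.33% and 9.39% with *Krt79* of at least 1 UMI, 4.12% and 4.47% with at least 3 UMIs, and 4.07% and 5.10% after thinning. The difference was -0.0767 points with at least 2500 genes and 2.06 points with *Krt79* of at least 1 UMI. With at least 2500 genes, 387 genes were above basal and 103 above Lhx2 cells. Thinning gave 109 above Lhx2 cells, and a minimum of 50 UMIs gave 108 above Lhx2 and 736 above suprabasal cells, since fewer genes could be called. On the log2 scale these ratios changed direction: *Calm4* to -0.0291 and *Krt8* to 0.74 (cKO over Ctrl, at least 2500 genes), *Krt17* over Lhx2 cells in Ctrl to -0.0592 (*Krt79* of at least 1 UMI), *Perp* to 0.21 (thinned) and 0.0247 (equal spread over the *Krt79* bins), *Krt15* over basal cells in cKO to -0.0842 (TMM) and -0.0830 (DESeq2), *Krt5* over suprabasal cells in cKO to -0.11 (TMM) and -0.15 (DESeq2), and *Ccer2* to 0.82 without the *Atoh1* cells. The causes were not tested. The removal of the *Atoh1* and of the *Calm4* cells was chosen after seeing the data. Of the values of single genes under the alternatives, 4048 stayed within the counting interval, 435 moved beyond it and the 10 above changed direction from a value whose interval was off 1. Another 77 crossed 1 from a value whose interval held 1. Of 35 named genes called between the conditions, 16 kept the call in every alternative and 19 lost it in some. Counts of genes higher in cKO ran from 246 without cycling members to 508 with *Krt79* of at least 1 UMI, and the split of higher to lower genes turned to 246 and 270 without cycling members and 249 and 273 after thinning. DESeq2 scaling gave 468 above and 281 below basal cells and 792 and 752 for suprabasal cells. No paired analysis was possible because each condition has 1 library. Depth limits genes with few UMIs: with 29 and 14 UMIs, as for *Mettl3*, the ratio of 0.522 had an interval from 0.255 to 1.02.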

Other observations

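*Igf1*, the gene of insulin-like growth factor 1, was at 62.1 CPM (51.2 to 74.6) in Ctrl and 36.3 CPM (27.7 to 46.6) in cKO in *Krt79*-positive cells and had 0 UMIs in Lhx2 comparison cells of each library. It was named after its values were seen. Its ratio of cKO to Ctrl in members was 0.584 (0.421 to 0.805), and the 1.5-fold call was lost with cells of at least 2500 genes, at 0.705 (0.435 to 1.12), after thinning, at 0.653 (0.420 to 1.003), and without the *Calm4* cells, at 0.683 (0.486 to 0.953). *Nfatc1*, a transcription factor known from bulge stem cells, was at 66.5 and 52.3 CPM in members, 97.5 and 71.2 CPM in Lhx2 cells and 0.517 and 0.616 CPM in basal cells. *Cdkn1a*, which encodes an inhibitor of the cell cycle, was at 99.4 and 109 CPM in members, above basal cells at 13.5 and 16.4 CPM and below suprabasal cells at 213 and 225 CPM.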
